A study of Mus musculus with 8 samples.

Results

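The suppressor of cytokine signalling (SOCS) family consists of 8 genes in the mouse, Socs1 to Socs7 and Cish, and was taken whole by gene name from a table of 41444 genes. All 8 members had a mean value of at least 4 and were among the 11851 genes tested, so no member was lost to the filter on low values. The 4 SLIT2 samples were macrophages grown from the bone marrow of wild-type C57BL/6 mice and given 6 nM SLIT2 for 16 hours. The 4 vehicle samples were the same kind of cell given vehicle control. SLIT2 is a secreted protein, first known for guiding axons, that binds ROBO receptors. Both groups had been grown with 100 ng/mL M-CSF, a growth factor that itself signals through a receptor tyrosine kinase on macrophages, so vehicle cells were not free of growth factor signals. The age and sex of the animals, and any pooling of marrow, are not stated in the labels.

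SOCS proteins are feedback inhibitors of cytokine signalling. A cytokine receptor activates JAK kinases, which phosphorylate STAT transcription factors, and STATs in turn switch on SOCS genes. Each SOCS protein has an SH2 domain that binds phosphorylated tyrosines and a SOCS box that joins a ubiquitin ligase built on elongins and a cullin. SOCS1 and SOCS3 also carry a short kinase inhibitory region that acts on JAKs directly. In macrophages, SOCS3 is known for limiting signals through the IL-6 receptor chain gp130 and SOCS1 for limiting interferon signals.

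Values are regularized-log (rlog) expression values, which lie on a log2 scale, so a difference of 1 corresponds to a 2-fold difference on that scale. The transform shrinks low genes towards their mean, so differences of low genes are understated. The table holds no read counts and the depth per sample is unknown. The libraries fell apart not only by treatment (37.3% of the summed variation of the genes tested) but also into 2 replicate sets, numbers 1 and 2 against 3 and 4 (46.7%), in both groups. Xist differed between these replicate sets, at 7.47 to 7.65 in replicates 1 and 2 and 12.69 to 12.79 in replicates 3 and 4 of both groups. The Y-linked Ddx3y ran the other way, at 10.75 to 10.83 in replicates 1 and 2 and 5.90 to 6.45 in replicates 3 and 4. The labels do not say whether the sets came from different animals. The macrophage label fitted the markers: 8 of 8 macrophage markers had group-wide means between 11.96 and 18.75. Markers of other cells were mixed. Elane, Mpo, Cd3e and Cd3g were at the lowest value of the table, -2.14. Ly6g, Cpa3 and Fcer1a were listed at 0, which cannot be ranked against -2.14 without read counts. Others on the same lists had clear levels, among them the platelet factor gene Pf4 (means of 11.1 in SLIT2 and 9.77 in vehicle), Cd4 (9.52 in SLIT2 and 10.1 in vehicle), the collagen gene Col1a1 (8.27 in SLIT2 and 8.11 in vehicle) and the osteoclast protease gene Ctsk (8.22 in SLIT2 and 8.24 in vehicle). The granulocyte receptor gene Cxcr2 ran from 5.38 to 6.22 in SLIT2 and from 5.50 to 6.53 in vehicle. The mean level of the macrophage markers ran from 14.6 to 14.9 in SLIT2 libraries and from 14.3 to 14.9 in vehicle libraries. Of all markers examined, Fcgr1 and Col3a1 were called higher in SLIT2 and Cd68, Cd4 and Dcstamp lower, and their part in the results on SOCS genes was not tested. In bulk samples, fewer cells that express a gene and less RNA per cell cannot be told apart.

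Of the 8 SOCS genes, only Socs3 passed the test between SLIT2 and vehicle, and it was higher in SLIT2. Across all genes tested, 6.76% were called higher and 6.58% lower, so 1 call among 8 genes is near the background share, and it is the size of the Socs3 difference that stands out. Socs3, the family member that binds gp130-type receptors and inhibits JAKs, had rlog values of 12.45, 12.50, 12.29 and 12.19 in SLIT2 replicates 1 to 4. In vehicle replicates 1 to 4 it had 7.88, 7.94, 7.73 and 7.81. All SLIT2 libraries were high and all vehicle libraries low, and the lowest SLIT2 library lay 4.25 above the highest vehicle library. The groups of 1 SOCS gene of 8 did not overlap, against 20.5% of all genes tested. The group means were 12.36 ± 0.143 in SLIT2 and 7.84 ± 0.0906 in vehicle (SD, n = 4 each). The SLIT2 minus vehicle difference was 4.52 on the log2 scale (SE 0.0808, 95% interval 4.33 to 4.70, limma adjusted p = 7.64e-08), a 22.9-fold difference on the rlog scale. By absolute difference Socs3 ranked 1 of the 11851 genes tested, ahead of the acute-phase gene Saa3 at 3.91, and 8 genes differed by at least 3. The difference was of the same size in both replicate sets, 4.57 in replicates 1 and 2 and 4.47 in replicates 3 and 4.

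**Figure D1:**
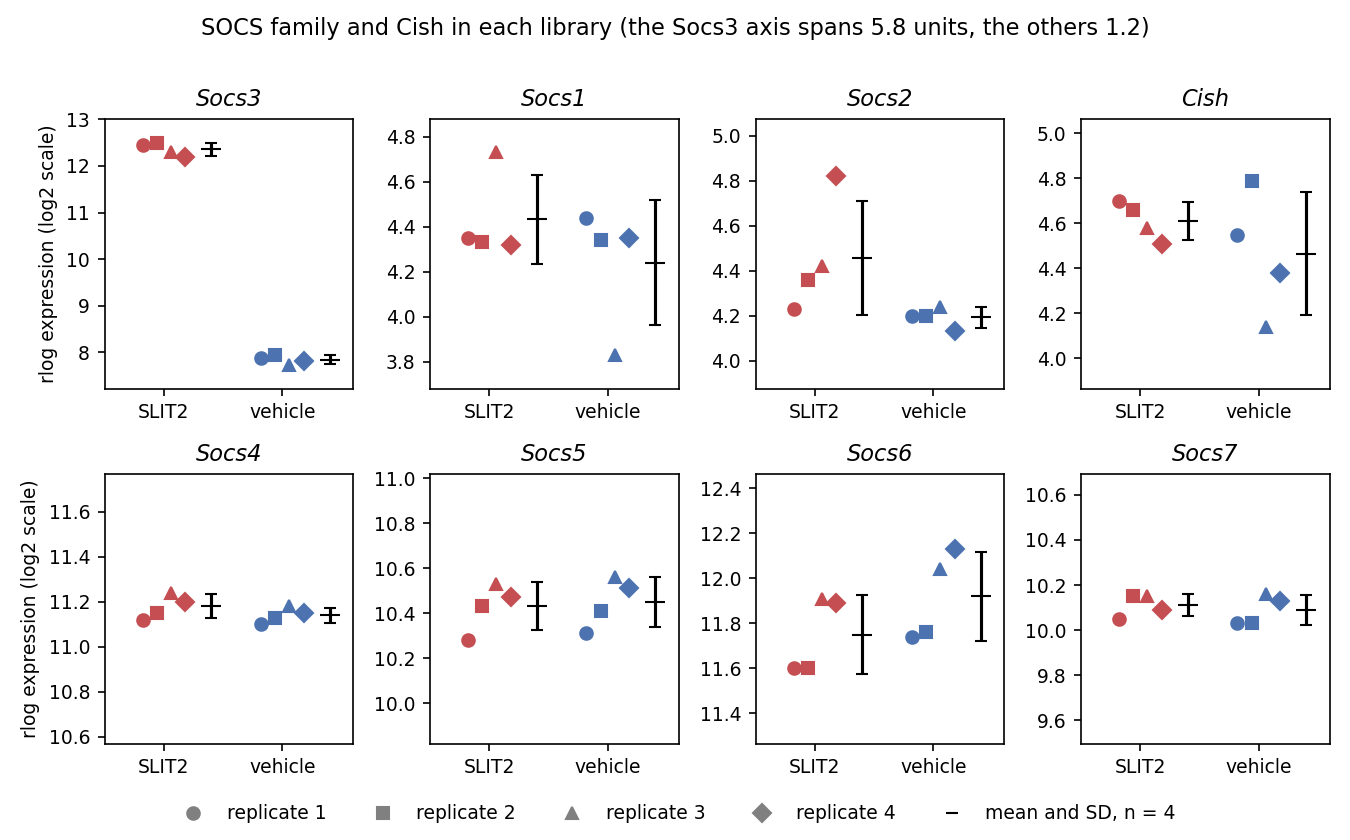
Rlog values (log2 scale) of the 8 SOCS genes in each library, with SLIT2 left of vehicle, 1 point per library and a bar with whiskers for each group's mean and SD (n = 4). The Socs3 axis is wider than the others. The Socs3 groups stand 4.25 apart at their nearest libraries, while the groups of the other 7 genes overlap.

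The RefSeq promoter window of Socs3 holds a match to the STAT consensus TTCNNNGAA, and that of Cish, the family's best known STAT5 target, holds a pair. The stretches that carry these matches are shown here because they set a member that moved beside one that did not pass the test. Both come from RefSeq on GRCm38.p6 and are printed 5′ to 3′ along the gene's strand, with the matches in capitals. The first is chr11:117969452-117969616 on the minus strand, from 250 to 86 bases before the RefSeq start of Socs3. The second is chr9:107296654-107296683 on the plus strand, across the start of Cish annotated in RefSeq. Both Cish matches lie at or after that start, while the Socs3 match lies before its own. GENCODE M21 begins both genes further upstream. The stretch of Socs3 lies within its GENCODE gene, outside the exons. Of the 300 bases searched for Socs3, 77 lie in GENCODE exons, all of them before the RefSeq start. All 300 bases searched for Cish lie in GENCODE exons, its matches included. Either window may therefore miss the promoter of the GENCODE transcripts, and sequence outside the windows was not searched.
Socs3: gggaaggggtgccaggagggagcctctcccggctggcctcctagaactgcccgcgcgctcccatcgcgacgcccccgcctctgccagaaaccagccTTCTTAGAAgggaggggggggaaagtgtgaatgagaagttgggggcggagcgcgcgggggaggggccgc
Cish: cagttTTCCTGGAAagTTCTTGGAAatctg
Windows of 300 bases, from 250 before to 50 after the annotated start, were searched for 4 of the 8 members. Socs6 was left out of this search, and Socs2, Socs5 and Socs7 had no promoter entry. Socs3 had 1 match and Cish had 2, while Socs1 and Socs4 had none. The motif reads the same on both strands, and 8.3% of 32851 RefSeq windows of that length held at least 1 match and 0.457% at least 2. The wider-spaced form TTCNNNNGAA, preferred by STAT6, was found in 6.95% of all windows and in none of these 4. A match is a run of letters, and no binding was measured.

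The low members of the family were Socs1, Socs2 and Cish, and none of them passed the test. Of the genes tested, 2.31% had a lower mean level than Socs1, 2.19% than Socs2 and 3.74% than Cish. Genes needed a mean of at least 4 to be tested, and these members lay just above it. The shares thus leave out all genes below that level. Socs1, an inhibitor of JAKs in interferon signalling, had 4.35, 4.33, 4.73 and 4.32 in SLIT2 replicates 1 to 4. It had 4.44, 4.34, 3.83 and 4.35 in vehicle replicates 1 to 4. SLIT2 replicate 3 was the highest library and vehicle replicate 3 the lowest, while the other libraries of the 2 groups lay among each other. The difference of 0.19 had a 95% interval from -0.17 to 0.56 (limma adjusted p = 0.512), with -0.05 for numbers 1 and 2 and 0.44 for numbers 3 and 4. Socs2, a regulator of growth hormone signalling, had 4.23, 4.36, 4.42 and 4.82 in SLIT2 and 4.20, 4.20, 4.24 and 4.13 in vehicle. Of its SLIT2 libraries, 3 lay above every vehicle library, and SLIT2 replicate 4 was the highest. The difference of 0.27 had a 95% interval from -0.03 to 0.56 (limma adjusted p = 0.233). Cish, an inhibitor of STAT5 signalling, had 4.70, 4.66, 4.58 and 4.51 in SLIT2 and 4.55, 4.79, 4.14 and 4.38 in vehicle. The highest and the lowest Cish value both belonged to vehicle libraries. Its difference of 0.15 had a 95% interval from -0.17 to 0.46 (limma adjusted p = 0.572). On the rlog scale the intervals of Socs1 and Socs2 both reach up to a 1.47-fold higher level in SLIT2, and the shrinkage of low values means that larger differences in the counts could lie behind them.

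The other 4 members, Socs4 to Socs7, were abundant and differed by 0.17 at most between the groups. Socs4, whose product is known to act on the epidermal growth factor receptor, had 11.12, 11.15, 11.24 and 11.20 in SLIT2 and 11.10, 11.13, 11.18 and 11.15 in vehicle. Its difference of 0.04 had a 95% interval from -0.06 to 0.13 (limma adjusted p = 0.653). Socs4 was the member with the least scatter, with a pooled within-group SD of 0.0445 that was lower in only 5.36% of the genes tested. Socs5, another regulator of that receptor and of IL-4 signalling, had 10.28, 10.43, 10.53 and 10.47 in SLIT2 and 10.31, 10.41, 10.56 and 10.51 in vehicle. The groups covered nearly the same range, and the difference of -0.02 had a 95% interval from -0.19 to 0.15 (limma adjusted p = 0.909). Socs7, which is known to bind insulin receptor substrates, had 10.05, 10.15, 10.15 and 10.09 in SLIT2 and 10.03, 10.03, 10.16 and 10.13 in vehicle. Its difference of 0.02 had a 95% interval from -0.09 to 0.14 (limma adjusted p = 0.847). Of these 3 genes the interval of Socs5 was the widest, from -0.19 to 0.15.

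Socs6, a regulator of receptor tyrosine kinases and insulin receptor signalling, was the member whose call turned on how the replicates were handled. It had 11.60, 11.60, 11.91 and 11.89 in SLIT2 replicates 1 to 4 and 11.74, 11.76, 12.04 and 12.13 in vehicle replicates 1 to 4. The 2 groups overlapped because replicates 3 and 4 were higher than replicates 1 and 2 in both, but the SLIT2 library was the lower one in 4 of 4 same-numbered pairs, by 0.14, 0.16, 0.13 and 0.24. The difference was -0.17 (SE 0.116, 95% interval -0.43 to 0.10, limma adjusted p = 0.423). With the replicate number as a block the same difference had an SE of 0.0292 and a limma adjusted p of 0.00709. Under the block, 33.0% of all genes tested were called, 16.4% as lower, so 2 members called of 8 is again near the background share. The Socs6 difference was -0.15 in the set of replicates 1 and 2 (limma adjusted p = 0.0105) and -0.19 in replicates 3 and 4 (limma adjusted p = 0.0262), each within duplicates only. With each set's duplicates averaged to 1 value, its limma adjusted p was 0.106 and Socs3 alone of the family passed (limma adjusted p = 0.0119, 5.81% of genes called).

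**Figure D2:**
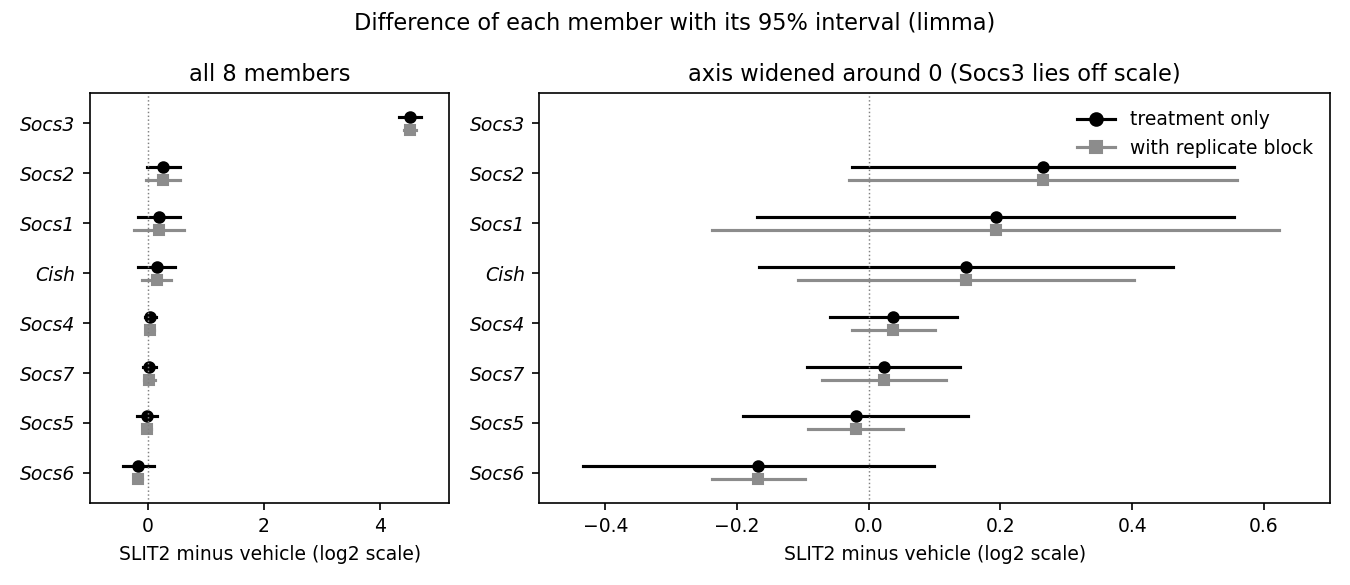
SLIT2 minus vehicle difference of each SOCS gene in rlog units (log2 scale), with its 95% limma intervals from the treatment-only fit and from the replicate block. Socs3 lies at 4.52, and the other 7 lie between -0.17 and 0.27. The treatment-only intervals of these 7 include 0, while the Socs6 interval with the replicate block runs from -0.238 to -0.0966.

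Set against the other members, Socs3 was alone in size. The differences of the other 7 ran from -0.17 (Socs6) to 0.27 (Socs2), so that of Socs3 was 17.1 times the widest among them. The median difference over the 8 members was 0.09, against 0.0025 over all genes tested, and the median absolute difference was 0.16, against 0.11. The log2 ratio of Socs3 to each other member was higher in every SLIT2 library than in any vehicle library, by 4.25 (to Socs2) to 4.69 (to Socs6) in the means. Those ratios share the Socs3 values and are given as a description, with no test.

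The treatment difference of no SOCS gene passed a test of its change between the replicate sets, for which 4.4% of all genes tested were called. The effect in replicates 3 and 4 minus that in replicates 1 and 2 was -0.10 for Socs3 (limma adjusted p = 0.546) and -0.04 for Socs6 (limma adjusted p = 0.767). It was widest for Socs1, at 0.49 (limma adjusted p = 0.365), where the pair of replicates numbered 3 differed by 0.90 and the other pairs by -0.09, -0.01 and -0.03. The levels themselves moved between the sets: Socs6 was higher in replicates 3 and 4 than in 1 and 2 by 0.30 in SLIT2 and 0.34 in vehicle, and Socs5 by 0.15 in SLIT2 and 0.18 in vehicle. Socs3 was lower in replicates 3 and 4 by 0.24 in SLIT2 and by 0.14 in vehicle, a shift small beside its treatment difference. Xist and Ddx3y moved between the same sets, and their part in these shifts was not tested.

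Levels of different genes can be compared only per length. Group means were therefore reduced by the log2 of each gene's length in kb, taken as the union of its annotated exons. On this length-adjusted rlog scale the order of levels in SLIT2 was Socs3 (10.83), Socs4 (8.40), Socs6 (8.25), Socs5 (7.75), Socs7 (7.25), Socs1 (2.89), Cish (1.93) and Socs2 (1.21). In vehicle the order was Socs6 (8.41), Socs4 (8.36), Socs5 (7.77), Socs7 (7.23), Socs3 (6.31), Socs1 (2.70), Cish (1.78) and Socs2 (0.94). Socs3 was thus the 1st member in SLIT2 and the 5th in vehicle, and the order of the other 7 differed only in Socs4 and Socs6. Those 2 were neighbours whose gap was within their spread over libraries in both groups, 0.15 in SLIT2 and 0.06 in vehicle. All other neighbours lay further apart than the larger of their SDs with this length. With the longest transcript as length, Cish and Socs2 lay within their spread, at 2.38 and 2.37 in SLIT2 and 2.23 and 2.11 in vehicle. Socs6 then stood above Socs4 in both groups, at 9.16 and 8.40 in SLIT2 and 9.32 and 8.36 in vehicle.

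Turned to a linear scale, the length-adjusted values give each member's share of the summed family level in a library. The share of Socs3 was 67.1%, 67.0%, 61.3% and 60.4% in SLIT2 replicates 1 to 4 and 7.71%, 7.83%, 6.20% and 6.49% in vehicle replicates 1 to 4. Socs3 held most of the family's summed level in every SLIT2 library and a small part of it in every vehicle library. Replicates 1 and 2 had the larger Socs3 share in both groups. The mean shares were 63.9% ± 3.59 in SLIT2 and 7.06% ± 0.831 in vehicle (SD, n = 4 each). Since shares add up to a fixed total, those of the other members were smaller in SLIT2: Socs4 had 11.9% in SLIT2 and 29.1% in vehicle, and Socs6 had 10.8% in SLIT2 and 30.3% in vehicle. Socs5 had 7.58% in SLIT2 and 19.3% in vehicle, and Socs7 had 5.36% in SLIT2 and 13.3% in vehicle. Socs1, Cish and Socs2 each held at most 0.587% in either group. With the longest transcript as length, Socs6 had 16.7% in SLIT2 and 41.9% in vehicle, above Socs4 at 9.79% in SLIT2 and 21.4% in vehicle, and Socs3 had 59.8% in SLIT2 and 5.90% in vehicle. The shares thus depend on the length used and on a transform that was not made for sums, and are a description without a test.

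**Figure D3:**
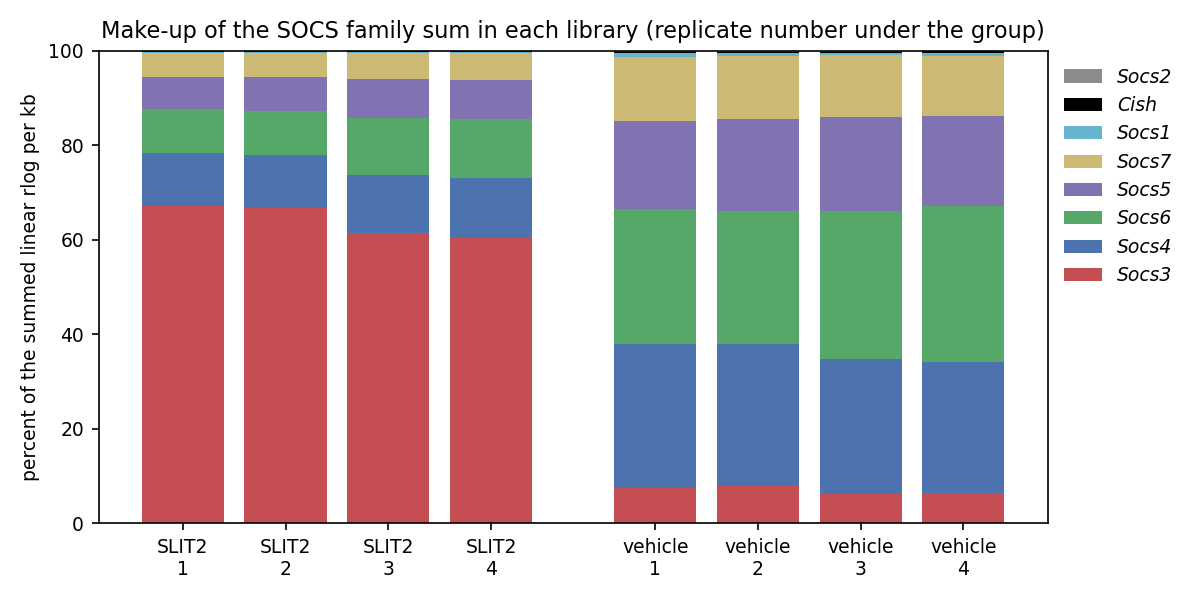
Share (percent) of each SOCS gene in the summed linear, length-adjusted rlog level of the family, 1 stacked bar per library, SLIT2 left of vehicle. Socs3 takes 60.4% to 67.1% in SLIT2 libraries and 6.20% to 7.83% in vehicle libraries.

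The genes whose rlog values ran most like those of each member were named by Pearson r over the 8 libraries, as a description; the 8 libraries share treatment and replicate set. For Socs3 these were Bcl3 (r = 0.999), an IκB-like transcriptional coregulator, Tfec (r = 0.999), a macrophage transcription factor, Rab3il1 (r = 0.998), I830077J02Rik (r = 0.998) and Pmvk (r = 0.997), an enzyme of the mevalonate pathway. The SLIT2 minus vehicle differences of these 5 genes were 1.73, 1.32, 0.98, 2.70 and 1.65, all narrower than that of Socs3, and 272 genes had an r above 0.95. For Socs6 they were the stress gene Gadd45a (0.997), Snapin (0.996) and the lipid peroxidase Gpx4 (0.995), with 190 genes above 0.95. The counts above 0.95 were 28 for Socs4, led by Tmem170 (0.983), Rbm8a (0.980) and Setd6 (0.976), and 14 for Socs5, led by Nol12 (0.981), Bcas2 (0.975) and Nradd (0.974). For Socs7 there were 2, Prkag2 (0.987) and the kinase Pim2 (0.955), followed by 9330182L06Rik (0.947). None lay above 0.95 for the 3 low members: Socs1 was closest to Mylk (0.95), Alg3 (0.882) and Aebp1 (0.879), Socs2 to Coro2a (0.932), Rnpc3 (0.925) and Cox6a2 (0.922), and Cish to Gorasp1 (0.944), Mr1 (0.943) and Rngtt (0.929).

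The gene models, from GENCODE M21 on GRCm38, show how the members differ in build. Socs3 (ENSMUSG00000053113, chromosome 11, 117966079 to 117970047, minus strand) has 2 exons in its coding transcript and encodes 225 residues. Socs1 (ENSMUSG00000038037, chromosome 16, 10782240 to 10785536, minus) also has 2 exons and encodes 212 residues. Socs2 (ENSMUSG00000020027, chromosome 10, 95385362 to 95417180, minus) encodes 198 and Cish (ENSMUSG00000032578, chromosome 9, 107296026 to 107302784, plus) 257. These 4 are the short members, with compact proteins in which little precedes the SH2 domain. The long members have extended N-terminal parts: Socs4 (ENSMUSG00000048379, chromosome 14, 47276931 to 47296102, plus) encodes 436 residues and Socs5 (ENSMUSG00000037104, chromosome 17, 87107679 to 87137839, plus) 536. Socs6 (ENSMUSG00000056153, chromosome 18, 88665224 to 88927481, minus) encodes 533 and Socs7 (ENSMUSG00000038485, chromosome 11, 97362551 to 97398542, plus) 579, in 10 coding-transcript exons. Per length, the 4 long members were the 4 highest in vehicle and the 4 short members the 4 lowest, while in SLIT2 Socs3 stood above the long members.

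The 3′ untranslated regions were searched for the pentamer ATTTA on the sense strand, with overlapping matches counted, since it is the core of elements known to shorten the life of many cytokine-induced mRNAs. The Socs3 region of 1474 bases held 4 (2.71 per kb), Cish 3 in 1087 bases (2.76 per kb), Socs2 2 in 1163 bases (1.72 per kb), and Socs1 none in 1993 bases. The long members held 17 (Socs4), 10 (Socs6), 5 (Socs7) and 4 (Socs5), in regions of 5182, 4019, 5184 and 2595 bases. Over 10960 coding genes tested the median was 1, the median density 1.25 per kb and the median region 965.5 bases long, and 34.1% of genes held none. Socs3's count was above that of 73.6% of these genes and Socs4's above that of 98.8%, so Socs3 is not set apart within the family by this count. RNA stability was not measured. Of the 8 members only Cish shared exonic bases with other annotated genes, 479 with Gm17041 on the other strand and 261 with the pseudogene Gm17040, both listed at 0 in every library.

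Around the SOCS genes, 10 lists of pathway genes held 166 genes, of which 117 were tested; 36 were called higher and 13 lower in SLIT2, where all genes tested gave 6.76% higher and 6.58% lower (16.6% and 16.4% with the replicate block). Counts are also given from the fit on averaged duplicates, which called 5.81% of all genes tested, where they differ. The lists were drawn up with earlier results of these data known, and some genes stand in more than 1 list. The induction side of the loop was examined first, as the ligands known to induce SOCS genes. Of 20 ligands, 5 were tested, with 1 higher and 1 lower. Il10, an anti-inflammatory cytokine that signals through STAT3, had 7.39, 7.70, 7.80 and 7.85 in SLIT2 and 7.08, 7.24, 6.78 and 6.74 in vehicle. Every SLIT2 library was above every vehicle library, with a difference of 0.73 (limma adjusted p = 0.0134). The difference was 0.39 in replicates 1 and 2, where it did not pass alone, and 1.07 in replicates 3 and 4, and the call was lost with averaged duplicates (limma adjusted p = 0.14). Ebi3, a subunit of IL-27, averaged 9.83 ± 0.118 in SLIT2 and 10.46 ± 0.201 in vehicle (SD, n = 4 each, difference -0.64, limma adjusted p = 0.00582). It shares 270 exonic bases with Gm16712 on the other strand. Il6 and Lif were below the minimum level for testing, at means of -0.56 in SLIT2 and -0.59 in vehicle for Il6 and 1.43 in SLIT2 and 1.35 in vehicle for Lif. Csf2, Ifnb1, Ifng and Il13 were listed at 0, which cannot be ranked against negative values without read counts.

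Among the receptors and docking proteins that SOCS proteins act on, 28 of 37 were tested, with 5 higher and 5 lower in SLIT2 and a median difference of -0.01. Il4ra, the signalling chain of the IL-4 and IL-13 receptors, had 14.03, 14.05, 13.48 and 13.42 in SLIT2 and 10.66, 10.73, 10.09 and 10.26 in vehicle. The groups lay far apart (difference 3.31, limma adjusted p = 6.13e-05), although the gene shares 571 exonic bases with the antisense gene Gm44876. Il21r rose by 1.71 (limma adjusted p = 0.00408) and the leukaemia inhibitory factor receptor Lifr by 1.66 (limma adjusted p = 0.00293). Il12rb2, an IL-12 receptor chain that shares 1519 exonic bases with Serbp1 on the other strand, fell by 1.01 (limma adjusted p = 0.00175). Il6st, which encodes gp130, the receptor chain that SOCS3 binds, averaged 12.98 ± 0.151 in SLIT2 and 13.05 ± 0.231 in vehicle and did not pass (difference -0.08, limma adjusted p = 0.764). With the replicate block, 9 were called higher and 9 lower, and with averaged duplicates 5 higher and 2 lower.

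Of the JAK kinases and STAT factors, 11 of 11 were tested and 4 were higher in SLIT2, with none lower and a median difference of 0.32. Jak3, the kinase of the common gamma chain, had 10.38, 10.40, 10.08 and 10.14 in SLIT2 and 9.02, 9.06, 8.92 and 8.86 in vehicle (difference 1.29); it shares 404 exonic bases with its neighbour Insl3. Stat3, the factor known to induce Socs3, had 13.30, 13.30, 13.05 and 12.99 in SLIT2 and 12.19, 12.15, 11.96 and 11.90 in vehicle (difference 1.11). Both genes had every SLIT2 library above every vehicle library. Jak2 (0.58, limma adjusted p = 0.039) and Stat5a (0.24, limma adjusted p = 0.028) also passed, but both lost the call when most single libraries were left out. Tyk2, a kinase of interferon and IL-12 receptors, had the widest difference of the list, 1.56, but scattered from 4.87 to 8.52 in SLIT2 and from 4.73 to 6.76 in vehicle and did not pass (limma adjusted p = 0.28). With the replicate block 8 were called higher, and with averaged duplicates 2, Jak3 and Stat3 (limma adjusted p = 0.0262 for each).

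Genes linked to single STATs in textbook accounts were taken list by list, and differences between the lists were not tested. Of the STAT3-linked genes, 18 of 20 were tested, and 12 were higher and 2 lower, with a median difference of 0.85. In the fit on averaged duplicates 11 were higher and 2 lower. Fos was among the 2 lower genes (difference -0.955, limma adjusted p = 0.00615). Socs3 is itself in textbook accounts of STAT3, and the part of STAT3 in its difference was not tested. Saa3 had 13.97, 13.95, 11.95 and 11.50 in SLIT2 and 9.68, 9.71, 8.06 and 8.29 in vehicle, so the groups did not overlap and the sets differed widely within each. Fgl2, a fibrinogen-like protein of activated macrophages, rose by 2.56 (limma adjusted p = 0.000252) and Bcl3 by 1.73 (limma adjusted p = 2.01e-07). Of the STAT5-linked genes 11 of 11 were tested, with 3 higher and 3 lower and a median difference of -0.12. The cell cycle gene Ccnd1 fell by 1.24 (limma adjusted p = 0.000197), while the kinase Pim1 rose by 0.76 and Ccnd3 by 0.57. With averaged duplicates Pim1 and Ccnd3 both lost the call (limma adjusted p = 0.07 for each), leaving none higher and 2 lower. Ccnd1 shares 1100 exonic bases with LTO1 and Pim1 488 with Gm26885, each on the other strand. Of the STAT6-linked genes 6 of 13 were tested, with a median difference of 0.27, 3 higher (Il4ra, the mannose receptor Mrc1 at 1.18 and Klf4 at 0.87) and 1 lower (Irf4, -0.57). With the replicate block 3 were lower, and with averaged duplicates none, Irf4 included (limma adjusted p = 0.0961).

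**Figure D4:**
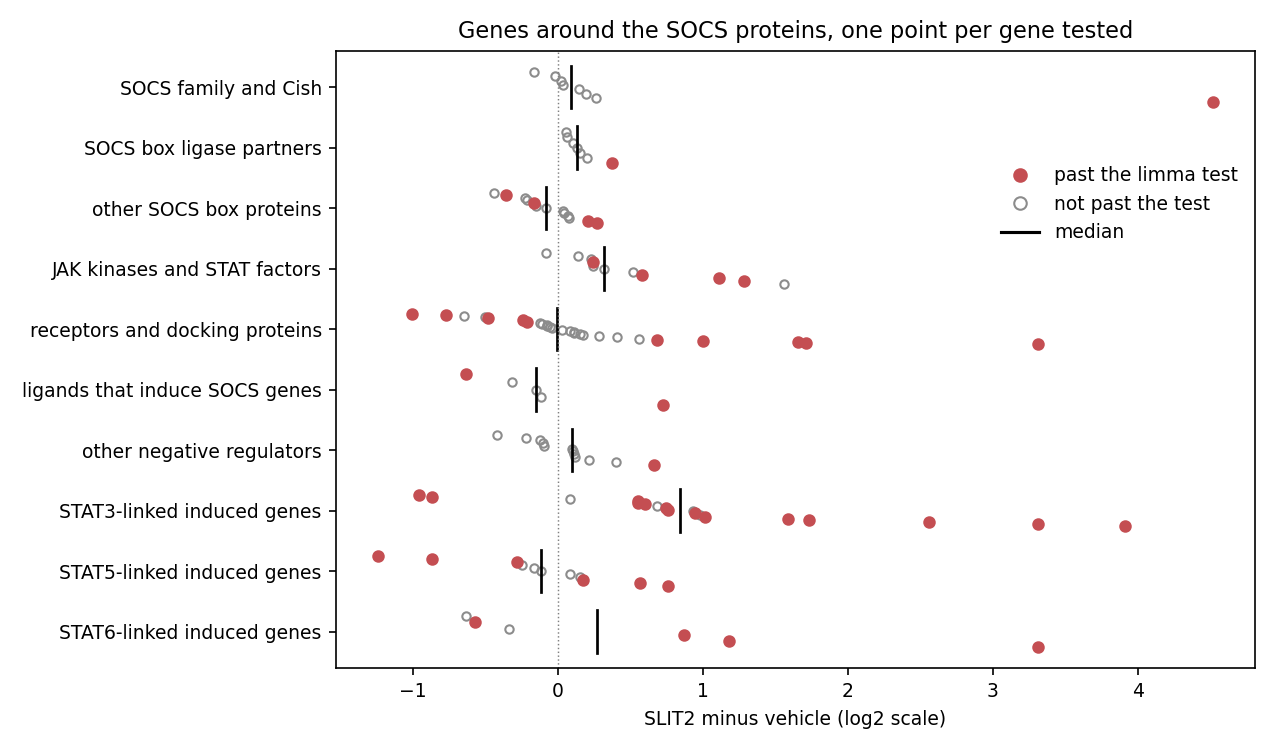
SLIT2 minus vehicle difference (rlog units, log2 scale) of each tested gene in the SOCS family (top line) and in 9 pathway lists, 1 point per gene, with called genes set apart by colour and a bar at each list's median. Saa3 at 3.91 and Il4ra at 3.31 are the widest, and no listed gene reaches the 4.52 of Socs3.

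Of the ubiquitin ligase partners, which are the elongins, the cullin Cul5 and its activators, 7 of 7 were tested and 1 was higher, with a median difference of 0.14. This was Ube2f, a NEDD8-conjugating enzyme (difference 0.38, limma adjusted p = 0.00705), and 4 were called higher with the replicate block. With averaged duplicates none was called, and Ube2f had a limma adjusted p of 0.102. Of 26 other SOCS box proteins 13 were tested, with 2 higher (Asb8 at 0.27 and Asb13 at 0.21) and 2 lower (Rab40c at -0.36 and Wsb2 at -0.17), and Asb13 and Wsb2 lost the call in each of 8 fits that left out a library. With the block 4 of them were lower, and with averaged duplicates none was called in either direction (limma adjusted p = 0.0968 for Asb8 and 0.054 for Rab40c). Of 13 other negative regulators of JAK-STAT signalling, such as phosphatases and PIAS proteins, 12 were tested and 1 was higher, Ptpn1, a phosphatase of JAK2 and TYK2 (difference 0.67, limma adjusted p = 0.000258). With the block 5 were higher and 3 lower, and with averaged duplicates 1 was higher and none lower. As Socs3 ranked 1 of the 11851 genes tested by absolute difference, it necessarily differed more widely than every other negative regulator in these lists.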

How the data were processed

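For RNA-seq, 300 ng of RNA per library went into a stranded mRNA kit, and read pairs were 101 bp long, per the labels' protocols. The tools named per the submitters' processing notes are STAR, Salmon, DESeq2, FastQC 0.11.9, SAMtools 1.7 and Picard 2.23.8 and the builds named are mm10 and GRCm38. Which step each tool served, the strand setting and any blinding of the transform to the groups are not given in the sources read. The authors deposited log2-scale rlog values with 2 decimals for 41444 genes, of which 20992 hold a single value in every library. They carry no depth, so no counting error can be given.

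The 11851 genes whose mean rlog reached 4 were compared with limma 3.58.1 under R 4.3.3 (linear model on treatment only, empirical Bayes with a trend, two-sided, Benjamini-Hochberg over all genes tested, threshold 0.05). The alternatives were a replicate block, the replicate set as a term, averaged duplicates, each set alone, other filters and priors, and leaving out each library. The labels do not tie the replicates to different cultures or animals, so p-values reflect only the spread among these samples, possibly technical. Deviations from the group means correlated between same-numbered samples (0.637, 0.671, 0.753 and 0.587 across genes). Same-numbered samples also share a replicate set, and different numbers within a set were not compared. These values therefore cannot show whether single numbers or only the sets pair the samples. The p-values given are from the fit on treatment only unless another fit is named.

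Gene models came from GENCODE M21 and promoters from RefSeq. Exonic overlaps with other annotated genes are given for some of the named list genes and not for all. Named were all 8 members, the 3 genes most like each (5 for the member with the widest difference) and up to 4 called genes per list with the widest difference; 1 list gives 3. Il6, Lif, the ligands at 0, Il6st, Tyk2, Fos, Saa3 beside Socs3, and the marker genes were named after their values were seen. Members and lists were chosen with earlier results of these data known. The results of 1 further list and 1 marker gene are not reported here; the counts over 10 lists keep that list.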

Additional observations from a re-analysis of the deposited data

Results flagged for a closer look

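Each of the 16 groups of 4 values (8 SOCS genes in SLIT2 and in vehicle) was checked for a library far from the others, and 2 stood out, both of Socs1. In SLIT2, replicate 3 lay at 4.73, and its gap to the next library took 0.927 of the group's range. In vehicle, replicate 3 lay at 3.83, with a gap of 0.836 of the range; both exceeded Dixon's 95% critical value for 4 samples. Chance flags about 1 in 20 groups. The Socs1 difference of 0.19 became 0.09 without SLIT2 replicate 3 and 0.06 without vehicle replicate 3, and did not pass the test in either fit. Socs1 is a low gene in these cells, and the part of low counts in this scatter was not tested.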

How the results depend on the processing

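Socs3 passed with the same direction in all 20 alternatives run, with adjusted p of 0.0119 at most (duplicates averaged). Socs6 (-0.17) passed with the replicate block (limma adjusted p = 0.00709) and with the replicate set as a term (limma adjusted p = 0.00116), and in replicates 1 and 2 alone (-0.15) and 3 and 4 alone (-0.19). The block changed the call of no other member. Socs1 turned to -0.05 in replicates 1 and 2 alone and Socs7 to -0.025 in replicates 3 and 4 alone. Socs5 (-0.02) turned to 0.029 without SLIT2 replicate 1, 0.018 without vehicle replicate 3 and 0.00083 without vehicle replicate 4.

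Leaving out each library in turn moved the differences of Socs3 over 4.47 to 4.57, Socs6 over -0.23 to -0.10, Socs5 over -0.066 to 0.029, Socs4 over 0.02 to 0.06, Socs7 over 0.0033 to 0.05, Socs1 over 0.06 to 0.26, Socs2 over 0.14 to 0.34 and Cish over 0.04 to 0.26. A minimum mean rlog of 6 leaves Socs1, Socs2 and Cish untested, so it gives them no value. With the longest transcript as length, 6 of 8 places in the SLIT2 order and 8 of 8 in the vehicle order stayed.

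Over all genes, 1581 were called (801 higher, 780 lower). The counts were 3912 (1966, 1946) with the block, 4652 (2365, 2287) with the set as a term, 688 (373, 315) with averaged duplicates, 3962 (2004, 1958) in replicates 1 and 2 alone and 2880 (1469, 1411) in replicates 3 and 4 alone. Leaving out a library gave 1021 (SLIT2 replicate 2) to 1254 calls, 517 to 665 higher and 504 to 602 lower. Listed genes called higher and lower, 36 and 13, became 56 and 25 with the block and 60 and 29 with the set as a term. With averaged duplicates 26 were higher and 6 lower, and in replicates 1 and 2 alone 54 and 23. Leaving out a library gave 29 to 34 higher and 10 to 11 lower. The cause of these shifts was not tested. The unknown depth limits the low members most.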
